A study of Mus musculus with 36 samples.

Results

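Lysosomal messenger RNA was followed through 43 mouse genes of the lysosome, the acidic compartment in which cells digest what they take up and what they recycle. They were chosen by name as enzymes, enzyme helpers, membrane proteins and proton pump subunits of that compartment, together with Tfeb. This choice, and that of the other gene lists below, was made with earlier results of these data known. All 43 genes were found among the 46078 genes of the deposited count table. By role they were 12 proteases, 12 glycosidases and lipid hydrolases, 5 activators, carriers and soluble cofactors, 7 membrane proteins, 6 proton pump genes and 1 transcription factor.

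Messenger RNA was measured in lung pieces of female C57BL/6 mice, a common inbred strain, with the large airways dissected away. Each animal had 1 intranasal dose of 50 μg of graphene oxide (GO), flat sheets of oxidised carbon, or of the dextrose solution without GO (D, dose 0 μg). The sheets came in the sizes the study names ultrasmall (US), small (S) and large (L), and lungs were taken at day 1, 7 or 28, when the animals were 9, 10 or 13 weeks old. That gives 12 groups of 3 libraries each, US, S, L and D at each day, and 36 libraries in all. All groups had the same instillation procedure and carrier. The labels' protocols give 4 to 5 animals for each group but do not say which animal a library came from, and the p-values below therefore reflect variation among libraries, which may be partly technical. The comparisons ask whether sheets of a given lateral size changed these genes relative to D, and whether sizes and days differed.

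A lysosome receives material from endocytosis, phagocytosis and autophagy, and its enzymes work best at the low pH that a vacuolar ATPase (V-ATPase) keeps up by pumping protons inward. Alveolar macrophages, the phagocytes of the air spaces, are rich in lysosomes, and alveolar epithelial cells store surfactant in organelles related to them. Tfeb, a transcription factor of the MiT family, is known to bind a short DNA element built around CACGTG in the promoters of many lysosomal genes and to raise their transcription.

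Depth was 16154696 to 23808264 counts for 35 libraries, and S day 7 replicate 2 was deeper, at 80566751. The lowest count of any of the 43 genes in any library was 158, so all 43 passed the filter on low counts and all were tested. Levels are given as counts scaled to the library's total (CPM) within a gene and as TPM, which is scaled by transcript length, between genes. Libraries of a group differed by more than counting noise, and none was treated as a duplicate of another. The lung epithelial marker list was present throughout, with a summed level of 143180 to 211350 TPM over the 36 libraries. The largest part of that sum was Scgb1a1, with a median of 111000 TPM, followed by Sftpc, with a median of 43029 TPM. Fat and heart muscle markers, signs of neighbouring tissue in a piece, varied between libraries. Fat cell markers are given below for L at day 28 and US at day 7, and heart muscle markers are not given by comparison. Whether the results moved with either was not tested.

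The 43 genes together made up 0.709% to 1.28% of all TPM in a library. Ctsd, the aspartic protease cathepsin D, had the highest mean of the 43 at 1083 ± 338 TPM (SD, n = 36 libraries). The lysosomal coat protein gene Lamp1 averaged 869 ± 44.6 TPM, Psap, the precursor of the saposins that help lipid hydrolases, 880 ± 159 TPM, and Npc2, a cholesterol carrier, 784 ± 131.5 TPM. These means of Psap and Lamp1 lay well within the spread of either gene over libraries. Among proteases the lowest was Ctsf, a cysteine cathepsin, at 22.9 ± 3.35 TPM. Glycosidases and lipid hydrolases ran lower than proteases, with Asah1, the acid ceramidase, highest at 188 ± 33.8 TPM and Gla, alpha-galactosidase A, lowest of all 43 at 10.9 ± 2.88 TPM. Within the pump genes, Atp6ap1, an accessory subunit, led at 141 ± 18.8 TPM and Atp6v0a1, a membrane sector subunit, was lowest at 42.2 ± 12.6 TPM. Mcoln1, a cation channel of the lysosomal membrane, was the lowest membrane protein gene at 46.4 ± 6.08 TPM, Npc1, the membrane partner of Npc2, the lowest of the carriers and cofactors at 43.9 ± 7.06 TPM, and Tfeb stood at 11.7 ± 2.80 TPM.

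**Figure D1:**
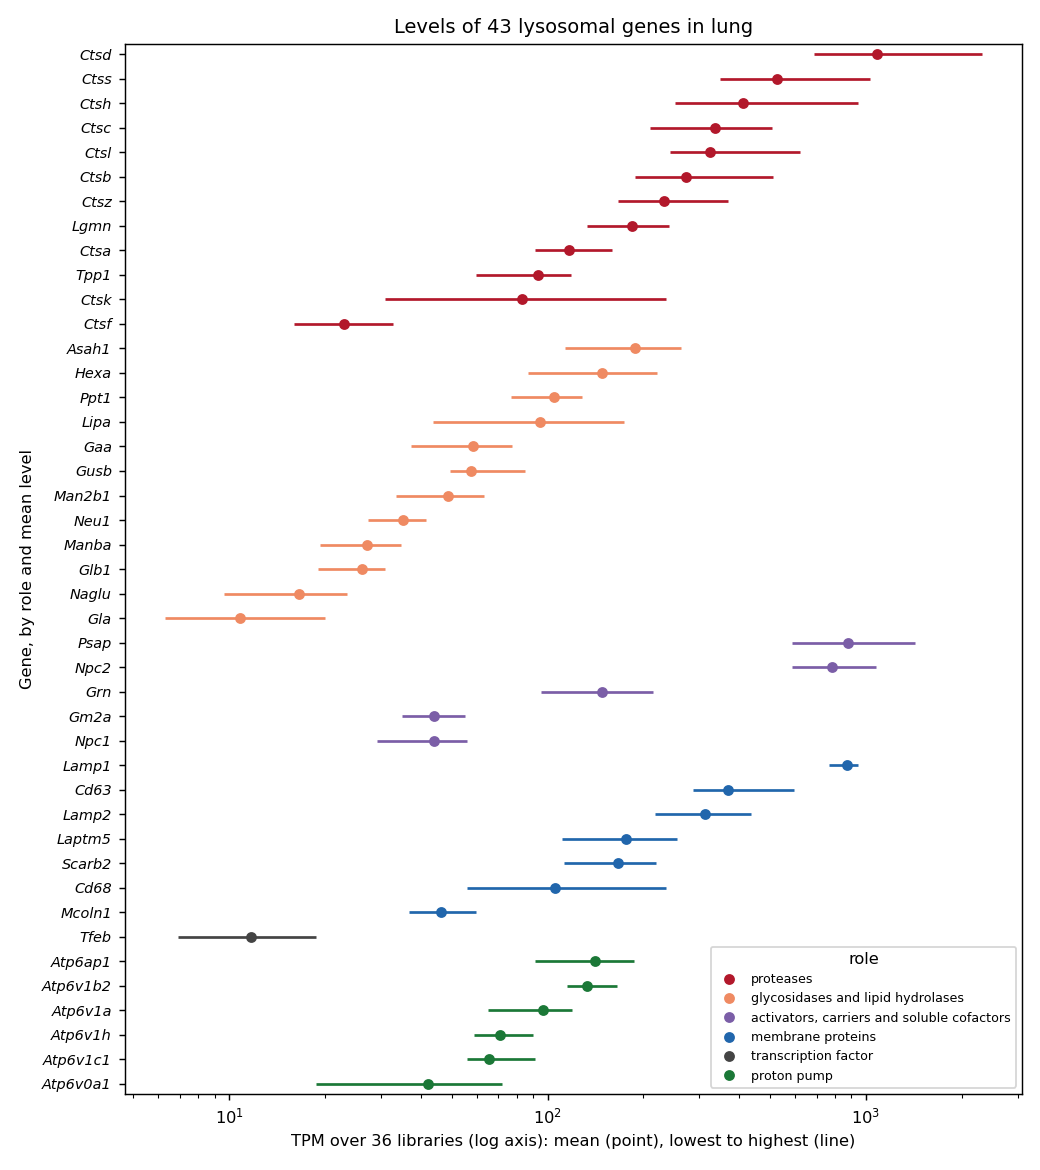
TPM of the 43 genes on a log axis, grouped by role, with the mean of 36 libraries as a point and the lowest to the highest library as a line. Ctsk and Cd68 have long lines (30.9 to 236 TPM and 55.7 to 236 TPM), while that of Lamp1 is short (765 to 943 TPM).

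Promoter sequences are shown for 4 genes, chosen after the results were seen. Of these, Ctsd, Ctsa and Gla rose in L at day 28 and carry the full element TCACGTGA. Lamp1 carries 4 copies of the shorter element and did not pass the test there. Mcoln1 and Atp6v1a also carry the full element, did not pass the test in L at day 28 and are not shown. Each line holds the 250 bases before a RefSeq transcription start in GRCm38.p6, read 5′ to 3′ on the gene's own strand, and capitals mark CACGTG with the T before it or the A after it where either is present. The Ctsd stretch is chr7:142387828-142388077, minus strand. The Ctsa stretch is chr2:164833523-164833772, plus strand, the second of its 2 annotated starts. The Gla stretch is chrX:134601006-134601255, minus strand, and the Lamp1 stretch is chr8:13158911-13159160, plus strand.
Ctsd: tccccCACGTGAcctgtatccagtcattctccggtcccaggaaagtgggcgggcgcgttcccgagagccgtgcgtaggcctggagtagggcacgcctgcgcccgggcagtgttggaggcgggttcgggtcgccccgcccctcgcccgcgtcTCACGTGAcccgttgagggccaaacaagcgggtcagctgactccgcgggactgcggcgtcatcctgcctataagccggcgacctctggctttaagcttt
Ctsa: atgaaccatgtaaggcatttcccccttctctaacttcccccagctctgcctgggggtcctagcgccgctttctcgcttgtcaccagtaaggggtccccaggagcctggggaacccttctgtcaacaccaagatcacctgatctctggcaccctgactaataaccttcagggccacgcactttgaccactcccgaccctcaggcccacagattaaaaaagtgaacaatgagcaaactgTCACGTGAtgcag
Gla: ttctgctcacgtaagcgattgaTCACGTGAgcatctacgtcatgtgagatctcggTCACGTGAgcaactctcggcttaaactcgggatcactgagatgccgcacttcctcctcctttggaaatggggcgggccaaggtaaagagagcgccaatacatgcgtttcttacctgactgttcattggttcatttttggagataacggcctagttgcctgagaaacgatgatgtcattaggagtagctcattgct
Lamp1: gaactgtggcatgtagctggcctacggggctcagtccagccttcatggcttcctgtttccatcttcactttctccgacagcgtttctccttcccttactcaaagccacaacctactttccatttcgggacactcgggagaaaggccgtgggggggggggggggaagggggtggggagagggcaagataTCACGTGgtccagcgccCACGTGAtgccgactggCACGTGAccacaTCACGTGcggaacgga

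In the Ctsd stretch the full element begins 99 bases before the start, in Ctsa 13 bases before it, and in Gla 228 and 195 bases before it. RefSeq windows of 300 bases, 250 before and 50 after a start, were on hand for 36 of the 43 genes. Motifs were searched on both strands. CACGTG and TCACGTGA read the same on both strands, TCACGTG is CACGTGA on the other strand, and each longer motif holds the shorter ones. CACGTG was in a window of 12 of the 36 genes (33.3%), against 8.09% of all 27025 genes in the RefSeq table. TCACGTG was in 10 of the 36 (27.8%), against 4.29% of all genes. TCACGTGA was in 5 of the 36 (13.9%), namely Ctsa, Ctsd, Gla, Mcoln1 and Atp6v1a, against 1.12% of all genes. A match is a description of the letters in a window and not a measured binding site.

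At day 28, lungs given L held more lysosomal protease messenger RNA than lungs given D, while most genes of the lysosomal membrane and of the proton pump did not pass the test. Of the 43 genes, 14 were higher in L and 0 lower, by edgeR's quasi-likelihood test at an adjusted p under 0.05, against 1.25% of the 16903 genes tested that were higher and 0.893% that were lower. By role, 8 of 12 proteases, 3 of 12 glycosidases and lipid hydrolases, 1 of 5 activators, carriers and cofactors, 1 of 7 membrane proteins and 1 of 6 pump genes were higher. The median log2 fold change of L over D was 0.32 for the 43 genes and 0.0002 for all genes tested. It was positive in 38 of the 43, against 50% of all genes. In 28 of the 43 genes all 3 L libraries lay above all 3 D libraries, against 16.5% of all genes, and in 1 gene all 3 lay below, against 14.4%. In whole tissue, a larger number of cells rich in these messages and more message per cell cannot be told apart.

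Ctsk, the collagen-cutting cathepsin K, had the largest fold change of the 43. It was at 194, 106.4 and 176 CPM in L and at 25.7, 44.4 and 37.99 CPM in D. All 3 L libraries were more than 2 times the highest D library, and the fitted log2 fold change was 2.12 ± 0.39 (SE), or 4.34-fold (adjusted p = 0.00236). Ctsd was at 2165, 1392 and 2468 CPM in L and at 828, 885 and 891 CPM in D, a log2 fold change of 1.19 ± 0.19 (adjusted p = 0.000425). Ctsd counts may include reads of Ifitm10, which overlaps it on the same strand, but Ifitm10 averaged 7.73 CPM. Ctsl, a cysteine cathepsin, was at 658, 368 and 598 CPM in L and at 298, 285 and 262 CPM in D, with no overlap and a log2 fold change of 0.92 ± 0.14 (adjusted p = 0.00025).

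Ctsb, the cysteine protease cathepsin B, was at 1299, 756 and 1245 CPM in L and at 563, 592 and 603 CPM in D, a log2 fold change of 0.88 ± 0.15 (adjusted p = 0.00101). Ctsz, a carboxypeptidase, was at 262, 208 and 288 CPM in L and at 128.3, 140 and 141 CPM in D, a log2 fold change of 0.86 ± 0.13 (adjusted p = 0.000208). The groups of both genes stood apart, and replicate 2 was the lowest of the 3 L libraries in each. Ctsa, the protective protein that also holds beta-galactosidase and neuraminidase together, was at 248, 204 and 263 CPM in L and at 143, 152 and 158 CPM in D (log2 fold change 0.63 ± 0.10, adjusted p = 0.000529). Ctsa shares bases with Pltp on the other strand, at a mean of 391 CPM, and the strand setting of the counting is not given in the sources used here. Ctsb and Ctsz likewise touch Fdft1 and Nelfcd on the other strand, at 55.5 and 40.5 CPM.

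Ctss, the cathepsin that trims the invariant chain of class II molecules in antigen-presenting cells, was at 662, 395 and 754 CPM in L and at 291, 342 and 325 CPM in D. Its lowest L library stood close above its highest D library, and the log2 fold change was 0.90 ± 0.20 (adjusted p = 0.0108). Lgmn, an asparaginyl protease that activates other cathepsins, had a mean of 234.5 ± 33.4 CPM in L and 162 ± 11 CPM in D (SD, n = 3 each; log2 fold change 0.51 ± 0.12, adjusted p = 0.0199). The other 4 proteases were not called. Ctsf had a log2 fold change of 0.26 ± 0.18 and Tpp1, a tripeptidyl peptidase, one of 0.00 ± 0.09. Ctsh, an aminopeptidase that also processes surfactant proteins, was at 300, 367 and 366 CPM in L and at 363, 365 and 306 CPM in D, so the groups lay over each other. Ctsc, which activates the serine proteases of granulocytes and lymphocytes, was at 447, 399 and 468 CPM in L and at 479, 487 and 504 CPM in D (log2 fold change -0.19 ± 0.14, adjusted p = 0.483), the 1 gene with all L libraries below D.

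Among the hydrolases of sugars and lipids, Gla was at 33.0, 17.5 and 30.5 CPM in L and at 13.1, 15.7 and 14.9 CPM in D. Replicate 2 of L was just above D and the other L libraries were far above it, with a log2 fold change of 0.87 ± 0.18 (adjusted p = 0.0079). Hexa, the alpha chain of beta-hexosaminidase, was at 216, 171 and 226 CPM in L and at 141, 139 and 140 CPM in D (log2 fold change 0.52 ± 0.14, adjusted p = 0.0394). Naglu, an enzyme of heparan sulphate breakdown, averaged 33.4 ± 3.63 CPM in L and 21.5 ± 5.38 CPM in D (SD, n = 3 each; log2 fold change 0.61 ± 0.16, adjusted p = 0.0451) and lay nearest the threshold of the 14. Just beyond the threshold was Lipa, the acid lipase of cholesteryl esters and triglycerides, at 278, 143 and 251 CPM in L and at 144, 133.2 and 141 CPM in D (log2 fold change 0.66 ± 0.19, adjusted p = 0.059). The remaining 8, Gusb, Neu1, Man2b1, Ppt1, Glb1, Gaa, Manba and Asah1, had log2 fold changes of 0.03 to 0.38, none of them called.

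Psap was the called gene among activators and carriers, at 1852, 1334 and 2045 CPM in L and at 871, 1061 and 1214 CPM in D (log2 fold change 0.71 ± 0.16, adjusted p = 0.0128). Grn, the precursor of granulins, and Gm2a, the activator protein for ganglioside breakdown, had log2 fold changes of 0.35 ± 0.14 and 0.34 ± 0.12 and were not called. Npc2 and Npc1, which pass cholesterol from one to the other, had values on either side of 0, at 0.21 ± 0.16 and -0.20 ± 0.11, and neither passed the test.

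Cd68, a heavily glycosylated membrane protein of macrophage lysosomes, had the smallest p of the 43. It was at 153, 85.1 and 150 CPM in L and at 36, 49.6 and 50.4 CPM in D, a log2 fold change of 1.49 ± 0.21, or 2.80-fold (adjusted p = 0.000104). The groups did not overlap. The other membrane protein genes were not called. Cd63, a tetraspanin of late endosomes, was at 230, 181 and 243 CPM in L and at 139, 151 and 130 CPM in D (log2 fold change 0.61 ± 0.21, adjusted p = 0.128). Lamp1, whose promoter is shown above, was at 1116, 1046 and 1155 CPM in L and at 986, 994 and 1005 CPM in D (log2 fold change 0.13 ± 0.09, adjusted p = 0.476), a small gap without overlap. Laptm5, a protein of blood cell lysosomes, had a log2 fold change of 0.38 ± 0.15, Mcoln1 one of 0.11 ± 0.08, Lamp2, the second main coat protein, one of -0.05 ± 0.11 and Scarb2, the receptor that carries beta-glucocerebrosidase, one of -0.08 ± 0.09.

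Of the V-ATPase genes, Atp6v1c1, a subunit of the cytosolic sector, averaged 94.2 ± 16.8 CPM in L and 67.5 ± 4.81 CPM in D (SD, n = 3 each), its lowest L library, at 74.9 CPM, standing just above its highest D library, at 73.0 CPM (log2 fold change 0.46 ± 0.10, adjusted p = 0.0139). The other 5, Atp6v1b2, Atp6v0a1, Atp6v1a, Atp6v1h and Atp6ap1, had log2 fold changes of 0.03 to 0.31 and were not called. Tfeb was at 19.4, 24.3 and 19.3 CPM in L and at 12.3, 15.0 and 18.1 CPM in D, without overlap, but with a log2 fold change of 0.44 ± 0.25 that did not pass (adjusted p = 0.362). In TPM the Tfeb groups did overlap, at 11.1, 11.6 and 10.2 TPM in L and at 9.99, 12.1 and 15.4 TPM in D, and the log2 fold change by limma on log2(TPM + 1) was -0.16. Of genes with CACGTG in a RefSeq window, 6 of 12 were among the 14 called, and of the genes with a window but without it 6 of 24 were. Their median log2 fold changes of L over D were 0.39 and 0.35. For TCACGTG the calls were 5 of 10 with it and 7 of 26 without it, with medians of 0.34 and 0.35. For TCACGTGA they were 3 of 5 and 9 of 31, with medians of 0.63 and 0.34. The part of the motifs in the calls was not tested.

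**Figure D2:**
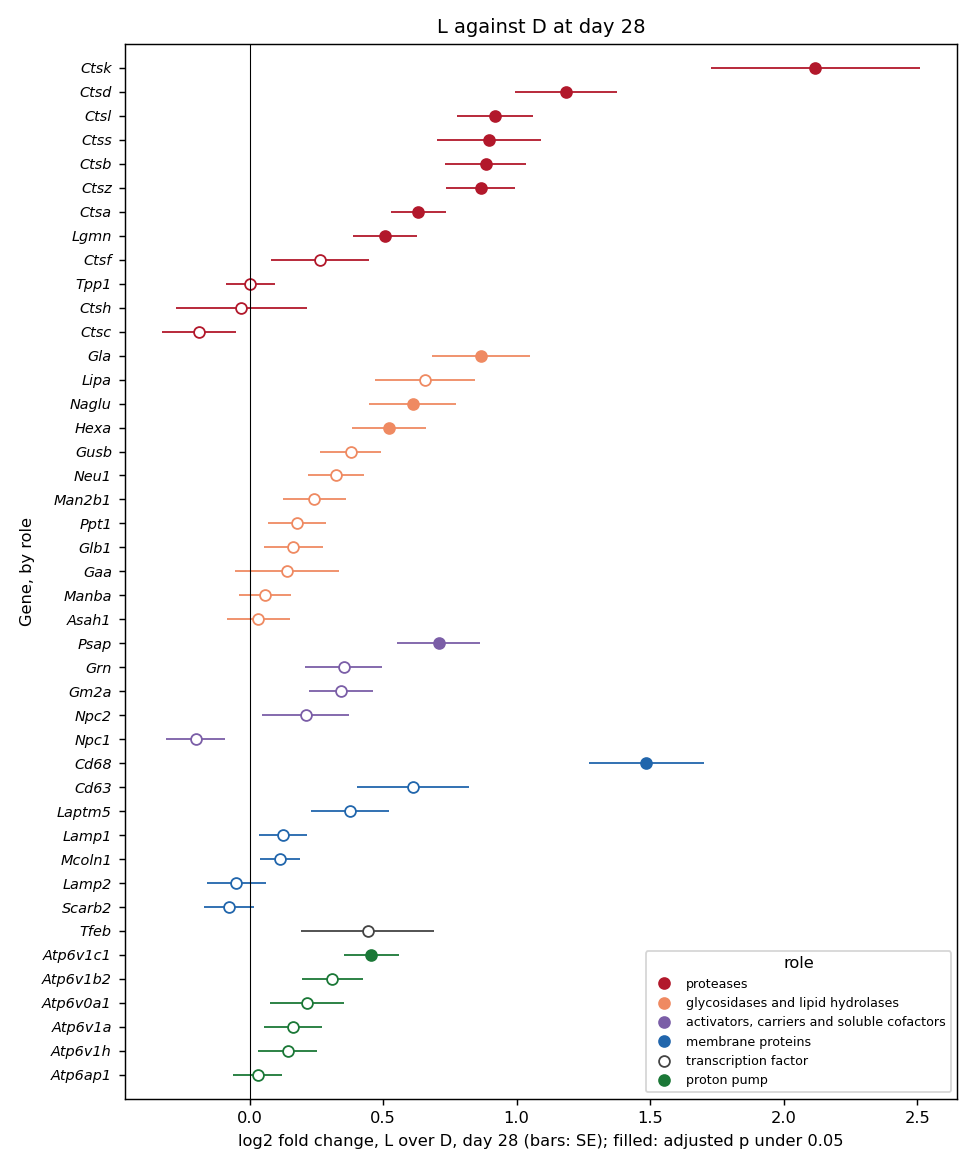
Fitted log2 fold changes of L over D at day 28 for the 43 genes, ordered by size within each role, with standard errors as bars and filled points for genes with an adjusted p under 0.05. Filled points run from 0.46 (Atp6v1c1) to 2.12 (Ctsk) and 8 of the 14 are proteases.

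The L libraries of day 28 were not alike. Replicate 2 was the lowest of the 3 for 37 of the 43 genes and for all 14 called, and 13 of the 14 had their highest value of all 36 libraries in replicate 1 or 3. The 14 had been called for high values in L at day 28, and the matching counts over all genes were not made. Without replicate 2 the number of higher genes was 18, in a fit that called 2.08% of all genes in either direction. Without replicate 1 or without replicate 3 it was 7 (0.653% and 0.624% of all genes). Without replicate 1 of D it was 8 (1.04% of all genes). Cd68, Ctsz, Ctsl, Ctsd, Ctsa, Ctsb and Ctsk were called in each of the 6 fits that left out an L or a D library of day 28. Gla, Ctss, Psap, Lgmn, Atp6v1c1, Hexa and Naglu were each lost in at least 3 of these 6 fits.

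Markers of macrophages moved unevenly beside these genes at day 28. Of 20 general macrophage markers, 1 was higher in L (Itgax, at 160.5 ± 54.7 CPM in L and 79.2 ± 13.5 CPM in D, SD, n = 3 each; adjusted p = 0.00173) and 0 were lower, with a median log2 fold change of 0.11. Their summed level was 13876 to 18995 TPM in L and 14733 to 15081 TPM in D, and none of the 20 was at 0 in any library. Most of that sum is 1 gene, Lyz2, with a median of 13389 TPM over the 36 libraries. Of 10 genes of macrophages loaded with lipid or particles, 8 were higher and 0 lower, with a median of 1.25. Their summed level was 2423 to 4005 TPM in L and 1870 to 2202 TPM in D, with replicate 2 again the lowest of L and none of the 10 at 0 in any library. Cd36, which was not called, had the highest median of the 10 over the 36 libraries, at 1060.5 TPM. The 8 higher genes included Mmp12, a macrophage elastase, at 269 ± 148 CPM in L and 7.51 ± 1.26 CPM in D, and Gpnmb, itself a glycoprotein of lysosomes and melanosomes, at 544 ± 283 CPM in L and 20.5 ± 4.28 CPM in D (adjusted p = 1.86e-07 and 1.01e-06). Fat cell markers summed to 15.9 to 18.9 TPM in L and 20.7 to 27.9 TPM in D, and none was called. Cidec had the highest median of these, at 15.4 TPM. The part of these cells and tissues in the lysosomal result was not tested.

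Other genes listed for the pathway also passed the test in L at day 28, where 1.25% of all genes were higher and 0.893% lower. Of 33 further lysosomal hydrolases and their sorting factors that were tested, 4 were higher and 0 lower, with a median log2 fold change of 0.10. Among the called ones were Acp5, the tartrate-resistant acid phosphatase (log2 fold change 0.87 ± 0.16, adjusted p = 0.0031), Dnase2a, an acid nuclease (0.64 ± 0.13, adjusted p = 0.00648), and Galns, a sulphatase of keratan sulphate breakdown (0.57 ± 0.15, adjusted p = 0.0481). Of 25 further membrane proteins and transporters, 2 were higher, Slc11a1, a metal ion exporter of phagosomes (1.5 ± 0.31, adjusted p = 0.00692), and Mcoln2, a channel related to Mcoln1 (1.26 ± 0.28, adjusted p = 0.0148). Of 18 further pump subunits 1 was higher and 1 lower. Atp6v0d2, a subunit typical of osteoclasts and macrophages, was at 155 ± 54.2 CPM in L and 60.6 ± 3.14 CPM in D (log2 fold change 1.33 ± 0.26, adjusted p = 0.00443), while Atp6v0a2 was at 63.5 ± 5.52 CPM in L and 83.5 ± 5.19 CPM in D (log2 fold change -0.42 ± 0.09, adjusted p = 0.00692; SD, n = 3 each). Of 20 genes of other MiT factors and autophagy 0 passed, with a median of 0.07.

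At day 28 edgeR called none of the 43 genes with the smaller sheets. For S against D, edgeR called 0 of 43, against 0.237% of all genes, with 6 at an unadjusted p under 0.05 (9.87% of all genes) and 1, Ctsa, called by DESeq2, which called 0.949% of all genes. Yet 41 of the 43 log2 fold changes were positive, against 50.1% of all genes, and in 22 all 3 S libraries lay above D, against 12% of all genes. Ctsa was at 212, 205 and 175 CPM in S and at 143, 152 and 158 CPM in D (log2 fold change 0.38 ± 0.10, adjusted p = 0.124). Cd68 was at 72.3, 68.1 and 70.2 CPM in S and at 36, 49.6 and 50.4 CPM in D (0.62 ± 0.21, adjusted p = 0.264), and Ctsd at 1288, 1237 and 1307 CPM in S and at 828, 885 and 891 CPM in D (0.55 ± 0.19, adjusted p = 0.268). The groups of all 3 genes did not overlap, and a fit of only these groups called 1 gene, Ctsd (0.318% of all genes). The comparisons of a day share the D libraries.

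For US against D at day 28, edgeR called 0 of 43, against 0.0237% of all genes, with 1 at an unadjusted p under 0.05 (6.02% of all genes) and 0 by DESeq2. Here too most log2 fold changes were positive, 36 against 7 negative, with a median of 0.09 for the 43 genes and 0.01 for all genes. The smallest p was that of Ctsz, at 174, 166 and 150 CPM in US and at 128.3, 140 and 141 CPM in D (log2 fold change 0.28 ± 0.13, adjusted p = 0.802), followed by Psap and Ctss. Ctsk, the widest of the genes, was at 37.6, 48.7 and 33.0 CPM in US and at 25.7, 44.4 and 37.99 CPM in D, so the groups overlapped.

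**Figure D3:**
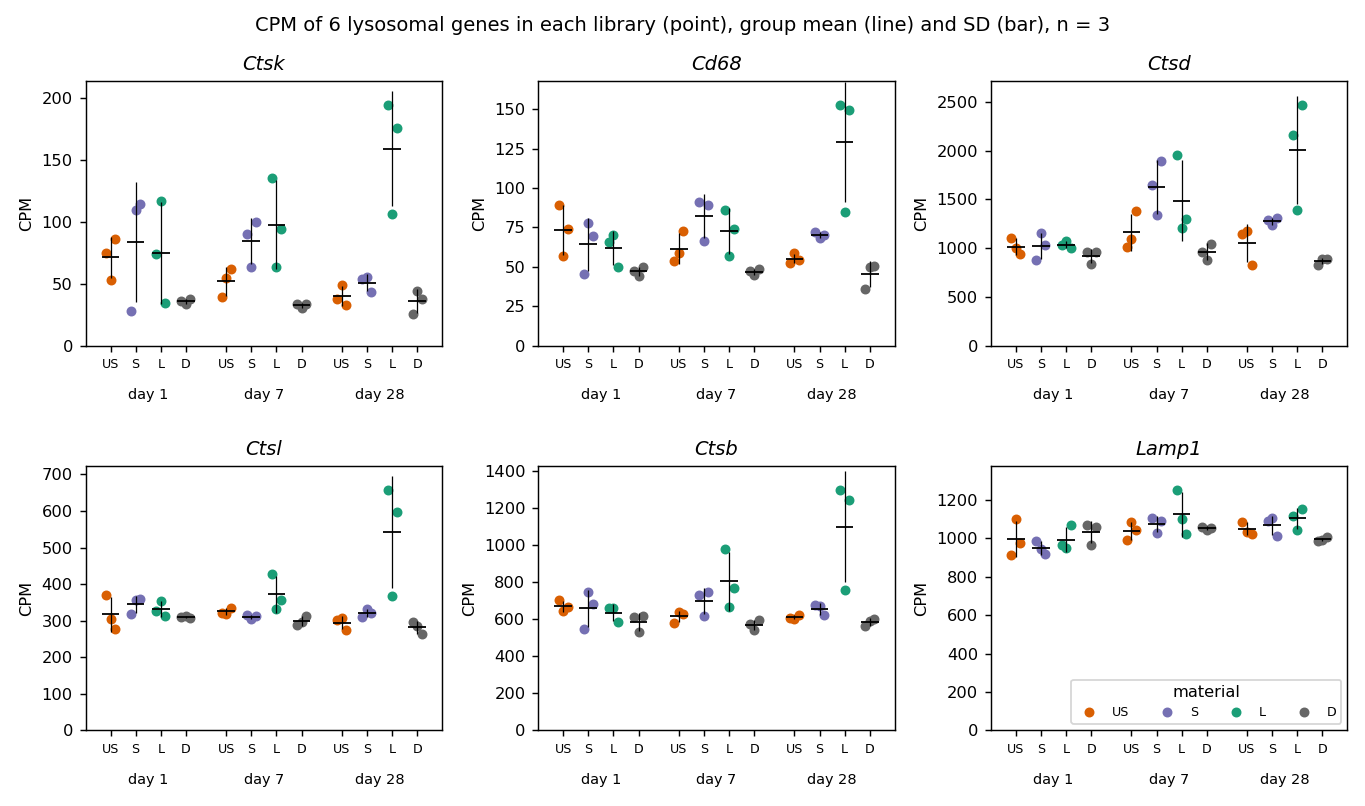
CPM of Ctsk, Cd68, Ctsd, Ctsl, Ctsb and Lamp1 in each of the 36 libraries, by material and day, with the group mean as a line and the SD as a bar (n = 3). L at day 28 holds the highest libraries of Ctsk, Cd68, Ctsd, Ctsl and Ctsb, 2 of its 3 libraries lie far above the third, and Lamp1 stays between 916 and 1253 CPM throughout.

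Set against the other sizes at day 28, Ctsl was higher in L than in either, and 6 more genes were higher in L than in US. Against US, 7 of the 43 genes were higher in L and 0 lower, against 0.349% of all genes higher and 0.166% lower. They were Ctsl (log2 fold change 0.84 ± 0.14, adjusted p = 0.00199), Cd68 (1.19 ± 0.21, adjusted p = 0.00379), Ctsb (0.81 ± 0.15, adjusted p = 0.00639), Ctsk (1.96 ± 0.39, adjusted p = 0.00907) and Ctsa (0.49 ± 0.10, adjusted p = 0.0161), followed by Ctsd and Ctsz. Ctsl was at 658, 368 and 598 CPM in L and at 302, 306 and 274 CPM in US. The count was 2 without replicate 1 or without replicate 3 of L, in fits that each called 0.169% of all genes. It was 3 without replicate 3 of US (0.349% of all genes) and 13 without replicate 2 of L (0.88%). It was also 2 in a fit of only these groups (0.737%).

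Against S, 1 gene was higher in L and 0 lower, against 0.0651% of all genes higher and 0% lower. It was Ctsl, at 310, 332 and 320 CPM in S, with a log2 fold change of 0.74 ± 0.14 (adjusted p = 0.0253). Leaving out replicate 1 or 3 of L or any of the 3 S libraries took the count to 0, and leaving out replicate 2 of L took it to 9 (0.373% of all genes). A fit of only these groups called Ctsk and not Ctsl, and 0.0635% of all genes. The median log2 fold change over the 43 genes was 0.18 against US and 0.18 against S, and -0.02 and -0.01 over all genes. S and US at day 28 gave 0 calls by edgeR and by DESeq2, with 1 at an unadjusted p under 0.05, against 0% and 5.44% of all genes. At days 1 and 7 no pair of sizes gave a call among the 43 genes by either tool. Of all genes, edgeR called 0% at day 1 for L against S and for L against US and 0.0177% for S against US. At day 7 it called 0.154% for L against S, 0.00592% for L against US and 0.142% for S against US. Genes of the 43 at an unadjusted p under 0.05 then numbered 3 for L against S (10.4% of all genes), 2 for L against US (6.27%) and 3 for S against US (13.7%) at day 1. At day 7 they numbered 1 for L against S (6.69%), 11 for L against US (15%) and 1 for S against US (13.2%). Without replicate 3 of L at day 7, Ctsz and Lgmn were called for L against US, as were 5.03% of all genes.

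**Figure D4:**
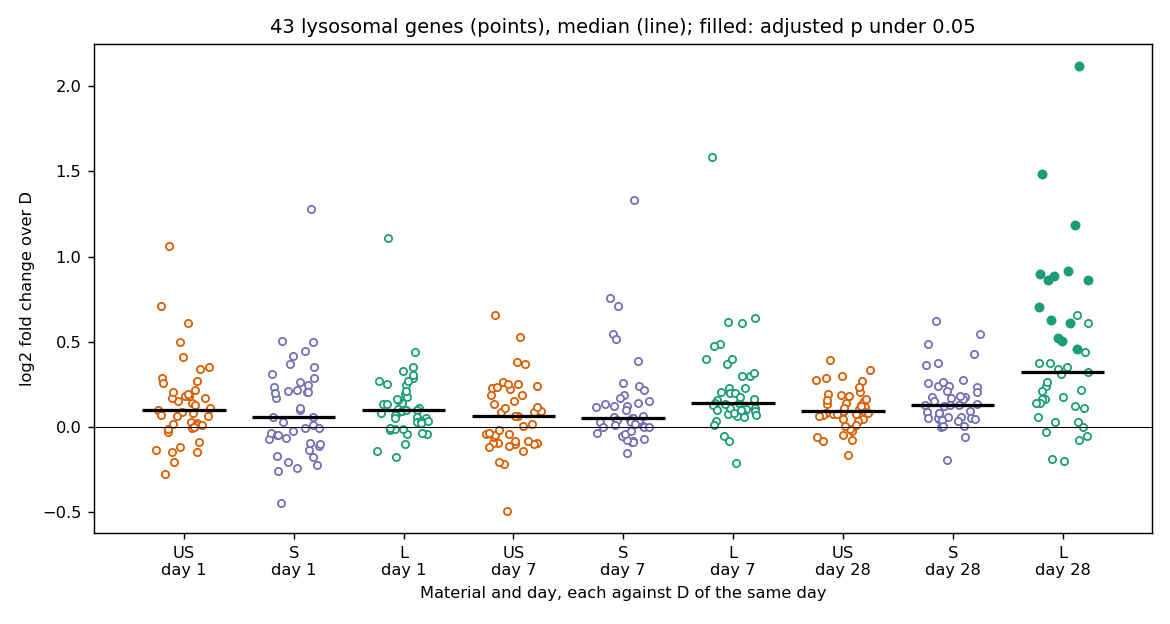
Fitted log2 fold changes of the 43 genes over D for each material and day, 1 point per gene, with the median as a line and filled points for an adjusted p under 0.05. All filled points are in L at day 28, where the median is 0.32, and the highest open point at days 1 and 7 of each material is Ctsk.

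At day 7 no gene of the 43 passed edgeR's test with any size. In 14 of the 43 genes (32.6%) all 3 L libraries lay above all 3 D libraries at day 7, against 4.99% of all genes. With S this held in 11 of the 43 (25.6%), against 11.1% of all genes. Of the 14 genes called in L at day 28, 11 lay above D in this way with L and 11 with S. Those genes were picked from these same data, so their counts are not set against the shares of all genes. With L, 0 of 43 were called by edgeR, against 0.154% of all genes. Of the log2 fold changes of L over D 40 were positive and 3 negative, with a median of 0.14 for the 43 genes and 0.0002 for all genes. At an unadjusted p under 0.05 there were 12 genes, all higher in L (4.87% of all genes in either direction), 10 of them among the 14 called at day 28. DESeq2 called 1, Ctsk, as did a fit without the filter on low counts and a fit of only these groups, in which 0.296%, 0.122% and 0.12% of all genes were called. Ctsk was at 135.6, 63.6 and 94.0 CPM in L and at 33.5, 30.0 and 33.5 CPM in D, a log2 fold change of 1.58 ± 0.39 (adjusted p = 0.14). Every L library was well above every D library. Ctss was at 653, 351 and 439 CPM in L and at 286, 336 and 295 CPM in D (0.64 ± 0.19, adjusted p = 0.444). Ctsd was at 1960, 1204 and 1296 CPM in L and at 962, 874 and 1047 CPM in D (0.62 ± 0.19, adjusted p = 0.444). Replicate 1 of L was the high library in these 3 genes and held the highest value of all 36 libraries for 8 of the 43, a count not made over all genes.

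For S against D at day 7, edgeR called 0 of 43, against 0.45% of all genes, with 6 at an unadjusted p under 0.05 (9.33% of all genes), and DESeq2 called 2, Ctsd and Cd68, and 1% of all genes. A fit of only these groups called Cd68 and Ctsk, and 0.462% of all genes. Ctsd was at 1648, 1335 and 1895 CPM in S and at 962, 874 and 1047 CPM in D (log2 fold change 0.71 ± 0.19, adjusted p = 0.0901). Cd68 was at 91.4, 66.4 and 89.0 CPM in S and at 47.6, 44.6 and 48.4 CPM in D (0.76 ± 0.21, adjusted p = 0.117), and Ctsk at 89.9, 63.6 and 99.7 CPM in S and at 33.5, 30.0 and 33.5 CPM in D (1.33 ± 0.38, adjusted p = 0.136). None of the 3 overlapped with D. Replicate 2 of S, the library sequenced most deeply, was the lowest of S for each of them, and thinning it to the depth of the others left the count at 0. Of the macrophage genes of lipid or particle loading, 2 (Trem2 and Gpnmb) were higher in S and 3 (Mmp12, Gpnmb and Trem2) in L at day 7, and their part was not tested.

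With US at day 7 other genes led. EdgeR called 0 of 43, against 2.09% of all genes, with 6 at an unadjusted p under 0.05 (25.7% of all genes), and DESeq2 called 2, Tpp1 and Asah1, and 8.26% of all genes. Asah1 was at 277, 222 and 292 CPM in US and at 170, 210 and 219 CPM in D (log2 fold change 0.38 ± 0.12, adjusted p = 0.0683). Tpp1 was at 174, 165 and 188 CPM in US and at 127.9, 135.5 and 169 CPM in D (0.26 ± 0.09, adjusted p = 0.0867), and Lipa at 147, 118.8 and 175 CPM in US and at 78.9, 98.2 and 124.4 CPM in D (0.53 ± 0.19, adjusted p = 0.0892). Without replicate 3 of D or without replicate 2 of US these 3 genes were called, in fits that called 13% and 17.7% of all genes. In D itself, day 7 against day 1, Asah1, Tpp1 and Lipa had log2 fold changes of -0.29 ± 0.12, -0.25 ± 0.09 and -0.30 ± 0.19. None of these passed (edgeR adjusted p = 0.1485, 0.137 and 0.3115). The part of the D level at day 7 in the values of US over D was not tested. Fat cell markers summed to 20.2 to 28.4 TPM in US and 33.1 to 79.7 TPM in D at day 7, and 1 of 6 tested, Adig, was lower in US (adjusted p = 0.0412). The endothelial marker Cldn5 was at 182 ± 56.4 CPM in US and 364 ± 89.0 CPM in D at day 7 (SD, n = 3 each; log2 fold change -1.03 ± 0.25, adjusted p = 0.037), the 1 of 10 endothelial and stromal markers called. The part of these markers in the values was not tested. Of the other pathway genes, Uvrag, an autophagy and endosome factor, was higher in US (0.41 ± 0.10, adjusted p = 0.0317).

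At day 1 libraries of a group were uneven and edgeR called none of the 43 genes. For US against D, edgeR called 0 of 43, against 0.0887% of all genes, with 7 at an unadjusted p under 0.05 (16.1% of all genes), and DESeq2 called 1, Cd68, and 2.16% of all genes. Cd68 was at 89.0, 57.2 and 73.9 CPM in US and at 47.4, 43.9 and 49.8 CPM in D (log2 fold change 0.71 ± 0.21, adjusted p = 0.107). Ctsk was at 74.8, 53.1 and 85.7 CPM in US and at 35.8, 33.5 and 37.8 CPM in D (1.06 ± 0.38, adjusted p = 0.174), and Ctsc at 500, 515 and 650 CPM in US and at 456, 449 and 468 CPM in D (0.34 ± 0.14, adjusted p = 0.219). US lay above D in all 3 genes. Without replicate 2 of US, Cd68 and Ctsh were called, as were 5.17% of all genes. Ctsh was at 852, 352 and 375 CPM in US and at 351, 402 and 341 CPM in D, with 1 US library far above the rest and the other two within the range of D.

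For S against D at day 1, edgeR called 0 of 43, against 0.0473% of all genes, with 11 at an unadjusted p under 0.05 (21% of all genes) and 0 by DESeq2. Ctsk was at 27.7, 109.2 and 114.4 CPM in S and at 35.8, 33.5 and 37.8 CPM in D, so 1 S library lay below D and 2 far above (log2 fold change 1.28 ± 0.39, adjusted p = 0.145). Ctsc was at 446, 625 and 643 CPM in S and at 456, 449 and 468 CPM in D (0.37 ± 0.14, adjusted p = 0.169), and without replicate 1 of S both genes were called, as were 2.94% of all genes. A fit of only these groups called 1 of the 43, Lipa, and 7.53% of all genes. Scarb2 was at 470, 497 and 486 CPM in S and at 435, 410 and 422 CPM in D (0.25 ± 0.09, adjusted p = 0.174), without overlap. With L at day 1, 0 of 43 were called by edgeR, against 0.0237% of all genes, with 3 at an unadjusted p under 0.05 (4.94% of all genes) and 0 by DESeq2. They were Ctsk, at 73.9, 116.6 and 34.1 CPM in L and at 35.8, 33.5 and 37.8 CPM in D (1.11 ± 0.38, adjusted p = 0.666), Lgmn (0.25 ± 0.12, adjusted p = 0.978) and Cd68 (0.44 ± 0.21, adjusted p = 0.978). For Ctsk 2 L libraries lay above D and the third within its range.

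**Figure D5:**
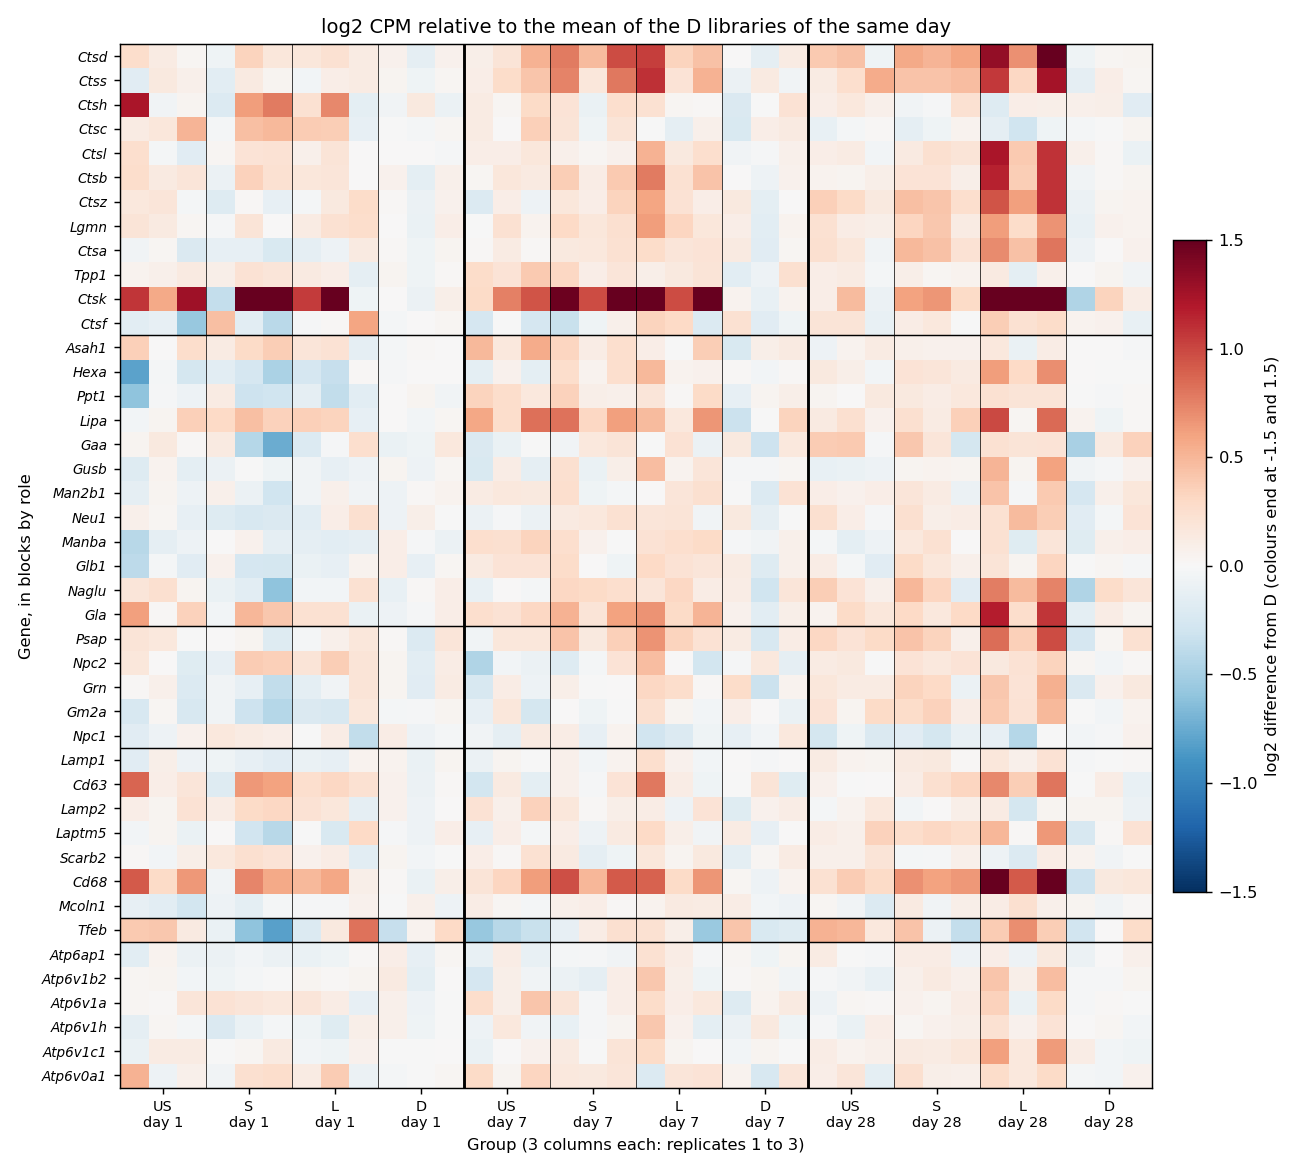
Log2 CPM of the 43 genes in each of the 36 libraries relative to the mean of the D libraries of the same day, in blocks by role, with materials and days along the x axis and 3 replicates per group. In L at day 28 most proteases, Gla, Psap and Cd68 stand above D, while the proteases Ctsc, Ctsh and Tpp1 do not. The rise is least in replicate 2, which was the lowest of the 3 L libraries for 37 of the 43 genes, a count not made over all genes.

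No difference in a material's effect between days passed the test among the 43 genes, in any of 9 such differences by edgeR. Of all genes it called, for US, 0.136% at day 7 minus day 1, 0.0473% at day 28 minus day 1 and 0.136% at day 28 minus day 7, for S, 0%, 0.195% and 0.0296% over the same differences, and for L, 0% at both day 7 minus day 1 and day 28 minus day 7. Apart from L at day 28 minus day 1, 0 to 7 of the 43 had an unadjusted p under 0.05 and DESeq2 called 0. The share of all genes at that unadjusted threshold is not given for these differences, so the 0 to 7 cannot be set against it. A fit of only the groups compared called 5 (Gm2a, Ctsz, Ctsa, Npc1 and Hexa) for S at day 28 minus day 1, a fit in which 16.3% of all genes were called. For L, day 28 minus day 1, edgeR called 0 of 43, against 0.243% of all genes, with 16 at an unadjusted p under 0.05 (12.5% of all genes), and DESeq2 called 4, Ctsd, Ctsz, Ctsa and Ctsl, and 0.655% of all genes. Ctsa had the smallest p, with a log2 difference of 0.61 ± 0.15 (adjusted p = 0.084), and for Ctsk the difference was 1.01 ± 0.54 (adjusted p = 0.432). Without replicate 2 of L at day 28 there were 8 calls (0.443% of all genes), and without replicate 3 of L at day 1 there were 4 (1.85%). In D itself, edgeR called 0 of 43 at day 7 against day 1, with 5 at an unadjusted p under 0.05 (0% and 24.2% of all genes). These were Manba, Tpp1, Asah1 and Scarb2, lower at day 7, and Tfeb, higher. At day 28 against day 1 edgeR called 0, with 0 at an unadjusted p under 0.05 (0.0769% and 5.4% of all genes). DESeq2 called 0 in either. Over the 12 groups, L at day 28 held the highest mean CPM for 20 of the 43 genes and L at day 7 for 11, while D at day 7 held the lowest for 11, S at day 1 for 11 and D at day 28 for 9. The matching counts over all genes were not made, so these cannot be set against them.

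The spread over libraries differed widely between genes. The highest library was 1.29 times the lowest for Atp6ap1 in CPM and 1.37 times for Lamp1, against 4.24 times for Cd68 and 7.57 times for Ctsk. Atp6v0a1 ran from 87.5 to 161 CPM but from 18.7 to 72.2 TPM, so its spread depended on which of the deposited values was read.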

How the data were processed

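RNA sequencing of 36 lung libraries was used, 3 in each of 12 groups. The deposited counts are whole numbers of reads per gene, and the deposited per-library tables give coverage, FPKM and TPM per gene, per the file headers. Per the submitters' processing notes the tools included bcl2fastq 2.19.1.403, CASAVA, STAR 2.5.1b, featureCounts 1.5.1 and StringTie 1.3.3, and the builds GRCh37 and GRCm38, without roles. Neither an annotation release nor a strand setting for featureCounts could be read from the labels or headers, so counts of genes that overlap another gene are uncertain. RNA was selected by poly(A) tail, per the labels' protocols, and samples with a low RNA integrity number were discarded.

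From the counts, edgeR 4.0.16 (R 4.3.3) fitted all 36 libraries in 1 quasi-likelihood model with TMM scaling and its filter on low counts. Two-sided F tests had Benjamini-Hochberg adjustment across 16903 genes, and an adjusted p under 0.05 counted as a call. CPM is the count scaled to the library total, without TMM. TPM was used for levels between genes and, with limma 3.58.1 on log2(TPM + 1) and log2(TPM + 0.1) and a mean TPM of at least 1, as an alternative. The other alternatives were RLE scaling, no filter, a replicate block, only the groups compared, thinning of the deepest library, DESeq2 1.42.0 and leaving out each library. The model was tested on simulated data.

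The members and gene lists were chosen with earlier results of these data known. Every gene of the 43 is accounted for. By rule, up to 10 called members with the smallest p are named with values in a comparison with D, or the 3 with the smallest p where none is called, up to 5 in other comparisons, and up to 3 called genes of each other list. Genes named beyond this rule (such as Ctsk in US at day 28, Ctsh in US at day 1, Galns and genes called under an alternative) were chosen after their values were seen. The values of 1 other gene that the rule names are not reported here. Replicate numbers did not pair libraries. Carbon nanotube samples and day 90 were not analysed here.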

Additional observations from a re-analysis of the deposited data

Results flagged for a closer look

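In 5 genes every library of a material lay on one side of D at one day and on the other side at another day. The share of all genes that did the same is not given here, so these 5 cannot be set against it. The sign of the change was not tested by this comparison of libraries, and in the edgeR fit of all 36 libraries the difference between days passed for none of them. In a fit of only the groups compared, which called 16.3% of all genes for S, day 28 minus day 1, Ctsa, Hexa and Gm2a passed for that difference (edgeR adjusted p = 0.0139, 0.0214 and 0.0336).

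Ctsa had log2 fold changes of S over D of -0.11 at day 1, 0.13 at day 7 and 0.38 at day 28, and the fitted difference of day 28 minus day 1 was 0.49 ± 0.15 (edgeR adjusted p = 0.112). Hexa had values of -0.24 at day 1, 0.14 at day 7 and 0.17 at day 28 in S over D, with a difference of day 28 minus day 1 of 0.41 (edgeR adjusted p = 0.229). Gm2a had values of -0.20 at day 1 and 0.24 at day 28 in S over D (difference 0.44, edgeR adjusted p = 0.157). Ppt1 had values of -0.17 at day 1 and 0.18 at day 28 in L over D (difference 0.35, edgeR adjusted p = 0.359). Manba had values of -0.10 at day 1 and 0.23 at day 7 in L over D (difference 0.33, edgeR adjusted p = 1.00).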

How the results depend on the processing

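None of the called genes, or of the genes named for the smallest p in a comparison with D, changed direction under the alternatives run. Of the 43 genes for L against D at day 28, 9 uncalled ones changed sign in some fit: Tfeb, at 0.44, was -0.16 and -0.17 in the limma fits, and Manba, Tpp1, Gaa, Ctsh, Asah1, Lamp2, Scarb2 and Atp6ap1 moved between values of -0.08 to 0.14 and values of -0.05 to 0.07. For L against D at day 28 the count of 14 ranged from 11 to 16 over the 8 alternatives (16 with DESeq2, 11 with the replicate block) and from 7 to 18 when 1 library was left out, while the count over all genes, 363, ranged from 141 to 805 over the 8 alternatives. For L against US at day 28 the count of 7 was 2 with only the groups compared, 5 with the replicate block and with either limma fit, 10 with DESeq2, 7 with the other alternatives, and 2 to 13 with 1 library left out. The count over all genes there ran from 38 to 187 over the alternatives and from 29 to 151 with 1 library left out. For L against S at day 28 the count of 1 was 4 with DESeq2 and without the filter, 2 with RLE scaling, 0 with either limma fit and with the replicate block, 1 with only the groups compared (Ctsk in place of Ctsl), and 0 to 9 with 1 library left out. The count over all genes there ran from 5 to 37 over the alternatives and from 5 to 64 with 1 library left out.

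Elsewhere the count of 0 became, with DESeq2, 1 in US at day 1, 2 in US at day 7, 2 in S at day 7, 1 in L at day 7, 1 in S at day 28 and 4 for L, day 28 minus day 1. With only the groups compared it became 1 in S at day 1 (Lipa), 2 in S at day 7, 1 in L at day 7, 1 in S at day 28 (Ctsd) and 5 for S, day 28 minus day 1. It became 1 in S at day 7 with limma on log2(TPM + 1) (Ctsd, with 0.435% of all genes called) and 1 in L at day 7 without the filter (0.122% of all genes). With 1 library left out it ran from 0 to 2 in US and in S at day 1, 0 to 3 in US at day 7, 0 to 2 for L against US at day 7, 0 to 8 for L, day 28 minus day 1, 0 to 1 for L, day 28 minus day 7, and 0 to 1 for D at day 7 against day 1. The fit with 1 call for L, day 28 minus day 7, called 0.0175% of all genes, and that for D called 9.85%. The cause of these moves was not tested.

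The replicate numbers share no stated animal or batch: same-numbered libraries had correlations of their deviations from -0.478 to 0.371 in 54 pairs, 11 of them over 0.1, so the block is given as a setting only. With 3 libraries a group, changes smaller than the spread between libraries could not be seen. The lowest count of any of the 43 genes was 158, and how depth bears on which changes pass was not tested.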
